A study of Gallus gallus with 6 samples.

Results

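The LIM homeodomain and LIM-only factors described here are 7 genes, LHX2, LHX9, LMX1B and ISL1 with the cofactors LMO1, LMO4 and LDB1. Every probe set whose annotated symbol was exactly one of these names was taken, which gave 13 of the 38439 probe sets tested and 7 of 13009 genes. RNA came from chick forelimb buds that held a heparin bead. The bead carried recombinant human FGF2, or PBS alone as the control. It had been placed in the posterior mesoderm at Hamburger-Hamilton stage 23, about 500 µm from the tip. Tissue around the bead was taken 24 h later, at stage 25. There were 3 FGF2 arrays and 3 PBS arrays, each of RNA pooled from several embryos of a strain that the sources used here do not name, and each repeat was done on its own day, so the spread is one between pools. Both groups carry a bead and its wound. All values are log2 units of the deposited Affymetrix table, and folds are FGF2 over PBS unless stated.

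LIM homeodomain proteins join a DNA-binding homeodomain to a pair of LIM domains, zinc-binding folds that bind other proteins. LDB1 holds on to these LIM domains and forms dimers, so that it bridges homeodomain factors on DNA. LMO proteins consist of LIM domains without a homeodomain and can compete for LDB1. In the limb bud LHX2 and LHX9 are relatives of fly apterous that act in outgrowth in the mouse, LMX1B gives dorsal identity under the control of WNT7A, and ISL1 is known from the hindlimb field of the mouse and from motor neurons.

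The genes were selected on their log2 values in these same FGF2 and PBS arrays, so differences between the groups are given as a description without a test. Probe sets differ in how well they bind, so levels are not compared between genes, and only differences between arrays are. A probe set is called near background where it lay under 3.57, the 95th percentile of 746 probe sets whose names lack the prefix of chicken genes (median 2.38). The tissue held markers of forelimb mesenchyme. The forelimb factor TBX5 lay between 11.1 and 11.5 on every array and the hindlimb factor TBX4 between 2.32 and 2.35, near background, while PITX1, another hindlimb factor, stood above it at 6.51 to 7.68.

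The study listed primers for LHX2 and LHX9 on a sheet that serves both its in situ hybridization probes and its RT-qPCR. They are shown because the study compared this pair of relatives in embryos. The rows copied here do not state which use each primer had. No primer of one gene shared a run of more than 5 bases with a primer of the other on either strand. Only the primers were compared and not the stretches between them, so this does not show how well probes made with them would separate the genes. The primers are written 5′ to 3′ with no part marked.
LHX2 forward: ggatttctgcctctgaaatgg
LHX2 reverse: catcagaaaagatttgtgagagttgtc
LHX9 forward: caaagggggacagatgaacg
LHX9 reverse: ggattggtcaggtctgttaaagtg

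LHX2 and LMO1 stood higher around FGF2 beads on every array, and LHX9 stood high on a single PBS array. LDB1, LMX1B and the brightest LMO4 probe set differed little. LHX2 (Entrez Gene 395705, 1 probe set) gave 6.93, 7.03 and 7.27 in PBS tissue and 9.41, 10.03 and 9.28 in FGF2 tissue. The lowest FGF2 array thus lay well above the highest PBS array. The means were 7.08 ± 0.176 and 9.57 ± 0.402 (SD, n = 3), a log2 fold change of 2.50 ± 0.220 (SE) or 5.64-fold. Each SE given here is the moderated one of the limma fit. That fit draws the variance of a probe set toward a value estimated from all probe sets, so the SE does not follow from the SDs alone. Only 11 of the 38439 probe sets had a larger positive difference. More RNA per cell and more cells that hold the RNA cannot be told apart in such tissue, for this gene or any other.

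LMO1 (Entrez Gene 100858792), a LIM-only protein, also stood higher on every FGF2 array. Its 1 probe set gave 7.72, 7.32 and 7.86 in PBS tissue and 9.47, 10.07 and 9.32 in FGF2 tissue. Again the groups did not overlap, and FGF2 replicate 2 was the highest array and FGF2 replicate 3 the lowest of its group, as for LHX2. In PBS tissue the order differed, with LMO1 lowest on replicate 2 and LHX2 lowest on replicate 1. The log2 fold change was 1.99 ± 0.244 (SE) or 3.96-fold, with 20 probe sets showing a larger positive difference. The name of this probe set marks it as one that can match several transcripts, and no other LMO1 probe set was on the array, so the value has no second measurement.

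**Figure D1:**
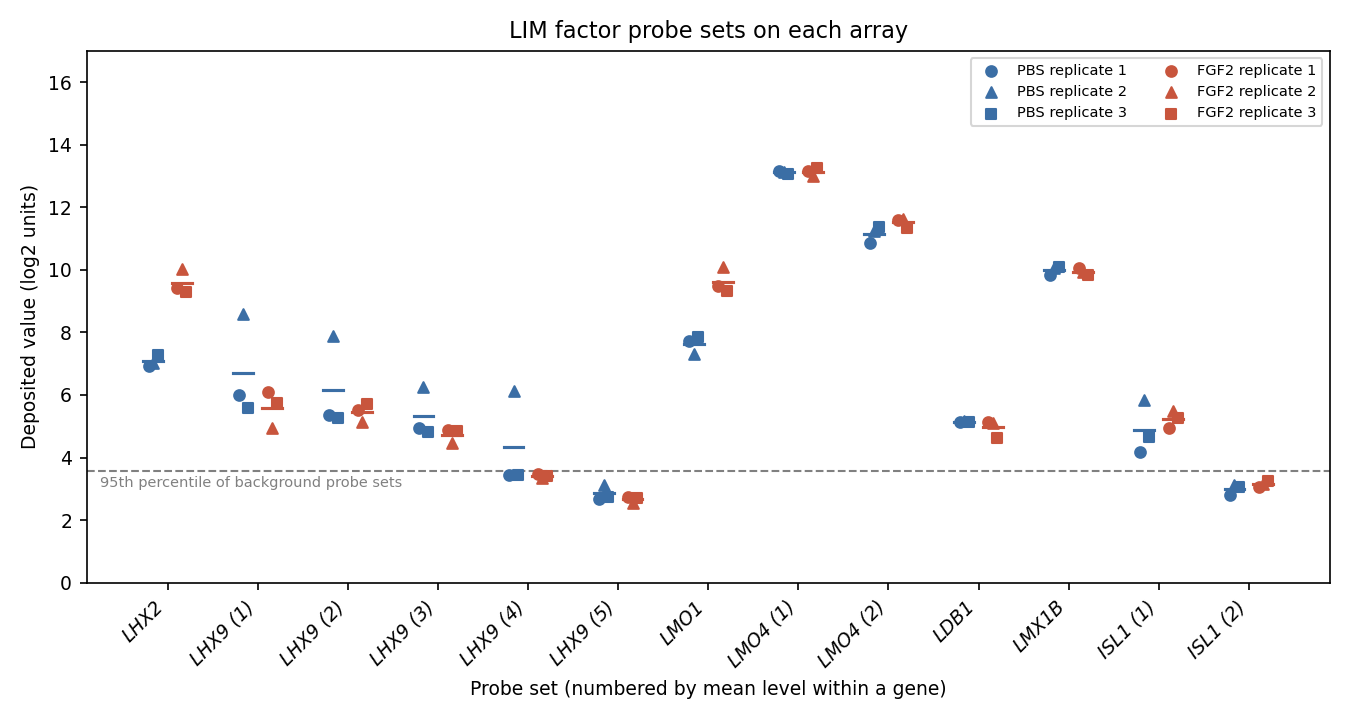
Deposited log2 value of each of the 13 probe sets on each of the 6 arrays, with bars at the group means and a dashed line at the background limit of 3.57. LHX2 and LMO1 separate the groups, and PBS replicate 2 stands alone at the top of the LHX9 probe sets.

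LHX9 (Entrez Gene 396397), the closest relative of LHX2 here, showed no such difference, and its mean rested on 1 array. Its brightest probe set gave 5.99, 8.57 and 5.57 in PBS tissue and 6.08, 4.94 and 5.75 in FGF2 tissue. PBS replicate 2 was thus far above all other arrays, and the remaining PBS arrays lay among the FGF2 arrays. The log2 fold change was -1.12 ± 0.864 (SE), and it was -0.19 without PBS replicate 2.

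All 5 LHX9 probe sets were highest on PBS replicate 2. The 3 brightest lay 2.79, 2.57 and 1.38 above the mean of PBS replicates 1 and 3, which is 6.94-fold for the first. The fourth read 6.11 on PBS replicate 2 and was near background on every other array, and the dimmest was near background on all of them, so neither gives a measured fold. With PBS replicate 2 left out, the FGF2 minus PBS differences of the 3 brightest were -0.19, 0.14 and -0.14, on both sides of 0. These probe sets measure the same RNA and are not independent samples. LHX2 was not high on that array, at 7.03 between the other PBS values.

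The spread of LHX9 within the PBS group, which uses no FGF2 value, was among the widest on the array. The SD of its brightest probe set over the PBS arrays was 1.63, and 2 of 38439 probe sets had a larger one. PBS replicate 2 lay more than 1 log2 unit above both other PBS arrays for 27 probe sets, 0.0702% of all. Of these, 4 were LHX9 and 1 was ISL1. The other 22 belonged to 16 named genes or had no symbol (3). They included GREM1, a BMP antagonist that links SHH to the apical ridge, at 3.42, 5.37 and 3.49 in the PBS arrays, and SOHO1, a homeobox gene, at 5.67, 8.72 and 6.68, both named after their values were seen. Other arrays stood above their group by this measure for 4 to 108 probe sets, with no LHX9 or other member among them. In the other direction, PBS replicate 2 lay more than 1 log2 unit below both other PBS arrays for 57 probe sets. That was the most of any array, the others ranging from 0 to 30.

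Markers of anterior limb mesenchyme went both ways on PBS replicate 2. Of the 6 measured genes, PAX9 and ASB4 were near background on every array and the other 4 above it. ALX1 gave 6.91, 7.69 and 7.33 in the PBS arrays and was highest there, whereas ALX4, a repressor of SHH in the anterior limb, gave 4.83, 4.52 and 4.77 and was lowest there. GLI3, the transducer that limits SHH signalling, was also lowest there at 12.31, 11.63 and 12.10. IRX5 gave 5.72, 5.16 and 5.15 and was highest on PBS replicate 1, so ALX1 alone of these 4 was highest on PBS replicate 2. Posterior markers were mostly low on that array, with a median over 8 genes of -0.19 from the PBS mean against 0.03 and 0.14 on PBS replicates 1 and 3. HAND2 gave 12.98, 12.57 and 13.01, TBX2 8.07, 7.57 and 8.09 and HOXD13 11.11, 10.87 and 11.26, each lowest on PBS replicate 2, whereas BMP2 was highest there at 11.38, 11.41 and 11.34. The 6 cartilage genes were low on that array, with a median of -0.46 from the PBS mean against 0.49 and 0.05 on PBS replicates 1 and 3. The part of tissue composition in the LHX9 value was not tested.

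Compared within each array, LHX2 gained on LHX9 in every FGF2 pool. LHX2 minus LHX9 was 0.94, -1.55 and 1.70 in PBS arrays and 3.33, 5.09 and 3.53 in FGF2 arrays, where the size of a single difference has no meaning but its shift between arrays does. The shift of the means was 3.62, with a pooled SD of 1.38 between replicates, and 2.66 without PBS replicate 2. The lowest FGF2 array stayed 1.63 above the highest PBS array.

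Against its cofactors the picture depended on the cofactor. LHX2 minus LMO1 shifted by 0.51, from -0.79, -0.30 and -0.59 in PBS arrays to -0.07, -0.04 and -0.04 in FGF2 arrays. The SD of this difference was 0.248 in PBS arrays and 0.016 in FGF2 arrays. LHX2 minus LMO4 and LHX2 minus LDB1 shifted by 2.48 and 2.68, beside 2.50 for LHX2 itself and -0.18 for LDB1 itself. Against the mean of the 3 cofactors the shift was 1.89, with a pooled SD of 0.223.

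LHX2 also gained on the other homeodomain factors, by 2.55 on LMX1B and by 2.15 on ISL1, or 1.65 on ISL1 without PBS replicate 2. LMO1 gained 1.97 on LMO4 and 2.17 on LDB1. LHX9 minus the cofactor mean was -2.68, 0.03 and -3.11 in PBS arrays and -3.19, -4.45 and -3.31 in FGF2 arrays, a shift of -1.73 that was -0.75 without PBS replicate 2. The groups did not overlap with or without that array, the nearest values being -3.11 in PBS replicate 3 and -3.19 in FGF2 replicate 1. The cofactor mean includes LMO1, whose own log2 fold change was 1.99. LHX9 alone overlapped between the groups and gave -0.19 without PBS replicate 2.

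**Figure D2:**
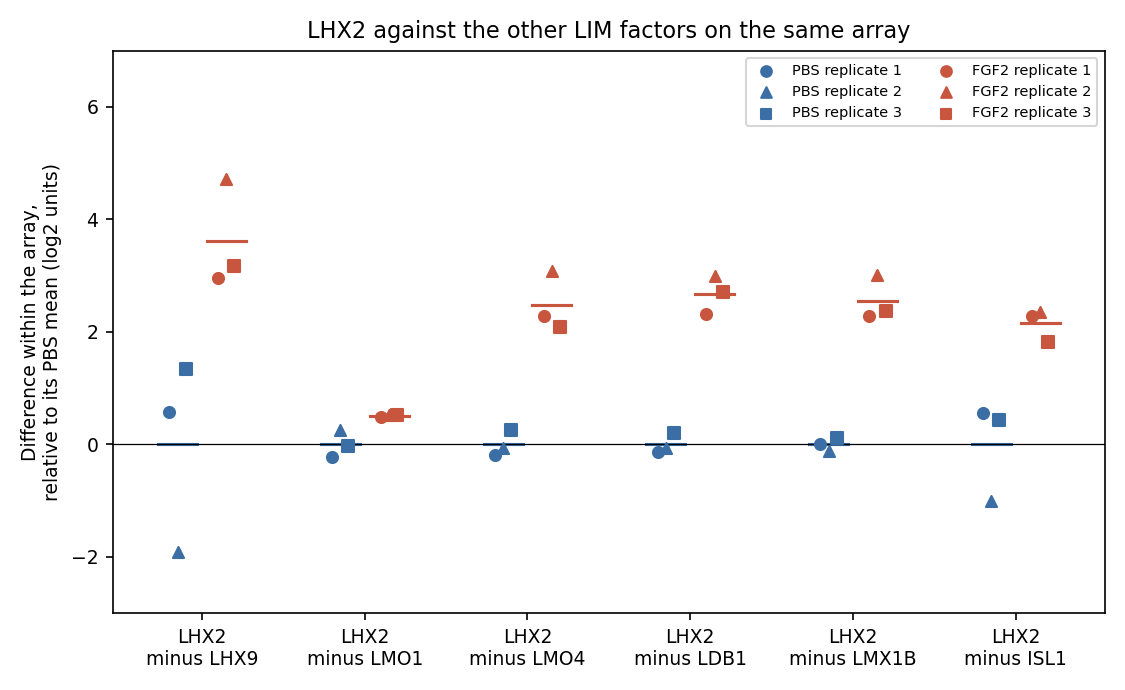
LHX2 minus each other LIM factor on the same array, set to 0 at the PBS mean, in log2 units (points are arrays, bars group means). The FGF2 arrays lie above all PBS arrays in each comparison, by the smallest shift, 0.51, against LMO1.

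LMO4 (Entrez Gene 373901), a LIM-only protein that binds many nuclear factors, was bright on both of its probe sets. The brightest was steady and gave 13.16, 13.14 and 13.06 in PBS tissue and 13.17, 12.99 and 13.24 in FGF2 tissue. The groups overlapped throughout, with a log2 fold change of 0.01 ± 0.072 (SE) whose sign turned with several arrays left out. The other probe set gave 10.86, 11.22 and 11.37 against 11.60, 11.61 and 11.33, with a log2 fold change of 0.36 ± 0.154 (SE), and its groups overlapped through FGF2 replicate 3 alone.

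LDB1 (Entrez Gene 395952), the shared bridge of the complexes, gave 5.13, 5.16 and 5.13 in PBS tissue and 5.15, 5.11 and 4.63 in FGF2 tissue. Of the 6 arrays 5 lay within 5.11 to 5.16, and FGF2 replicate 3 was low. The SD over the PBS arrays was 0.017, and 16.5% of all probe sets had a smaller one. Among those 5 arrays LDB1 was highest on PBS replicate 2 and lowest on FGF2 replicate 2. TBX4, near background, was too, at 2.352 and 2.316. Whether this probe set responds to LDB1 RNA was not tested, which limits its small difference and the shifts against LDB1. The log2 fold change of -0.18 ± 0.145 (SE) was -0.01 without FGF2 replicate 3.

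LMX1B (Entrez Gene 396312), the dorsal determinant, gave 9.84, 10.07 and 10.08 in PBS tissue and 10.05, 9.94 and 9.83 in FGF2 tissue. The whole range over 6 arrays was 0.25, and the log2 fold change was -0.06 ± 0.090 (SE). The groups overlapped.

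ISL1 (Entrez Gene 396383) varied mainly within the PBS group. Its brighter probe set gave 4.19, 5.84 and 4.65 in PBS tissue and 4.94, 5.50 and 5.27 in FGF2 tissue, with PBS replicate 2 the highest of all arrays. The log2 fold change was 0.34 ± 0.450 (SE), and it was -0.01 without PBS replicate 1 and 0.82 without PBS replicate 2. The other probe set lay between 2.80 and 3.26, near background on every array.

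**Figure D3:**
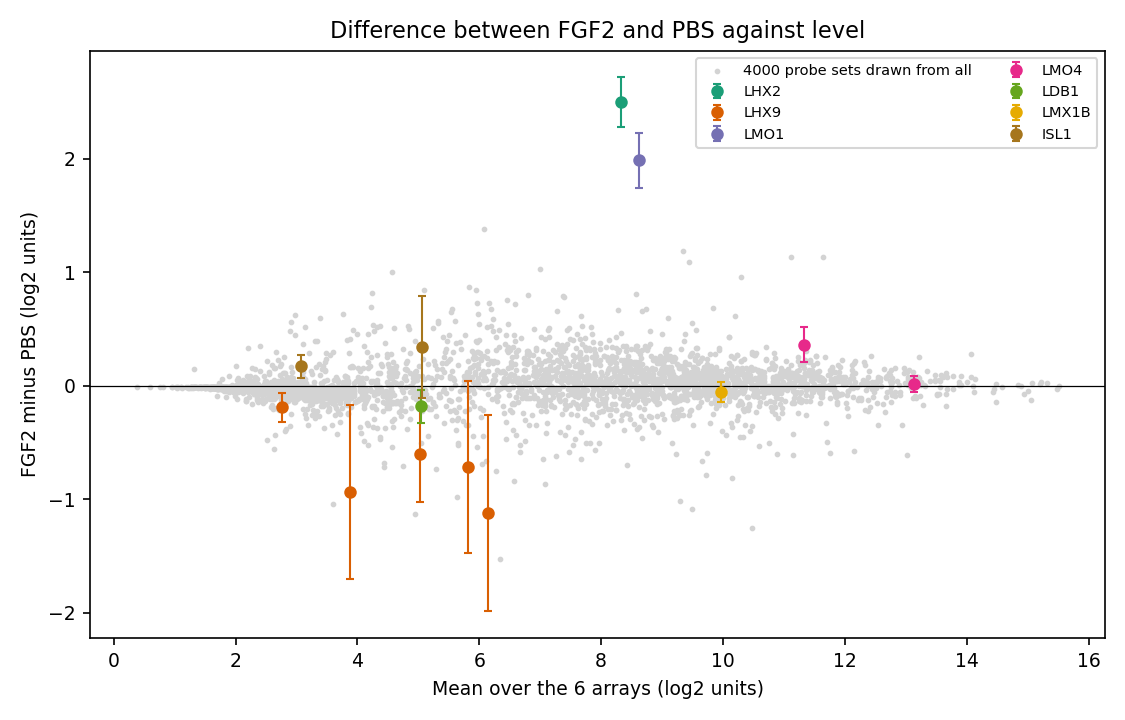
FGF2 minus PBS difference (log2 units, bars are SE) against the mean over 6 arrays for the 13 probe sets, on 4000 probe sets drawn at random in grey. LHX2 at 2.50 and LMO1 at 1.99 lie above the grey points, and 4 of the 5 LHX9 probe sets have a larger SE than LHX2.

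Of the 13 probe sets, 2 had all FGF2 values above all PBS values, those of LHX2 and LMO1, against 6.53% of all probe sets, and 0 had all below, against 5.84%. None passed an adjusted p of 0.05 in the limma fit, where 0.0104% of all probe sets did (4 of 38439, with 0.0078% of all higher). At an unadjusted p under 0.05 there were 2 members higher and 0 lower, where 8.93% of all passed, 5.6% higher and 3.33% lower. The members were picked with this contrast known, so nothing is read from these counts.

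The genes whose values over the 6 arrays most resembled LHX2, among 482 candidates brighter than the median probe set and spanning at least 1 log2 unit, were DGKE, a diacylglycerol kinase, MSX1, a homeobox gene of distal mesenchyme, GALNT9, a glycosyltransferase, DPYSL4, a dihydropyrimidinase-like protein, and HOXA13, a homeobox gene of the digits. Their Pearson correlations with LHX2 were 0.999, 0.998, 0.993, 0.993 and 0.991 over 6 arrays. LMO1 came next in rank 6, with 0.990. MSX1 gave 8.10, 8.22 and 8.20 in PBS tissue and 10.15, 10.64 and 10.09 in FGF2 tissue. HOXA13 gave 3.17, 3.23 and 3.24 against 6.24, 7.72 and 6.76, so that it was near background in PBS tissue alone. The 6 arrays form 2 clusters for these genes, so the correlations mostly restate the difference between the groups and are given as a description.

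The genes most like LHX9 by the same measure were FAM19A4, LOC419171, CPNE8, DYNC1I1 and SLC18A2, a vesicular monoamine transporter, at 0.9909, 0.9760, 0.9607, 0.9565 and 0.9495. Each had its highest value on PBS replicate 2. Without that array the correlations were 0.970, 0.786, 0.572, 0.630 and 0.902.

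Among the rest of the LIM homeodomain family, 6 of 8 listed genes were measured, namely LHX1, LHX3, LHX5, LHX6, LHX8 and ISL2, and all were dim. Their values lay between 1.68 and 3.93, none stood above the background limit on all arrays, and their log2 fold changes were -0.03 to 0.05. None was called in the limma fit, nor at an unadjusted p under 0.05, where 1011 of all 13009 genes were higher and 597 lower. A lower level in FGF2 tissue could not be measured from values this near background.

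The partners of LMO and LDB proteins went both ways, with 5 of 8 measured genes higher and 3 lower. Their median log2 fold change was 0.03, against -0.01 over all genes. None was called, and 0 passed an unadjusted p under 0.05, beside 1011 higher and 597 lower of all 13009 genes. DEAF1, a transcription factor that binds LMO4, gave 0.39 (adjusted p = 0.576), from 6.16, 6.06 and 6.53 in PBS tissue to 6.63, 6.85 and 6.44 in FGF2 tissue, with overlap, and its other probe sets were near background and gave -0.05 to -0.02. SSBP2 and SSBP3, single-stranded DNA-binding proteins that stabilize LDB1, gave -0.20 and -0.07 (adjusted p = 0.644 and 0.661). LDB2, the paralog of LDB1, gave -0.19 (adjusted p = 0.644). Of the other LMO genes, added after their values were seen, LMO2, a factor of blood and endothelium, gave 0.05 and LMO3 0.01 (adjusted p = 0.795 and 0.723). LMO3 lay between 9.84 and 9.89 on every array, and whether its probe set responds to LMO3 RNA was not tested.

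Limb genes tied to LIM factors were divided, with 5 of 12 higher, 7 lower and a median of -0.03. Of the lower genes, FGF8 and TBX4 were near background on every array, so a lower level could not be measured. GREM1 gave -0.53, with PBS replicate 2 at 5.37 and the other PBS arrays at 3.42 and 3.49. None of the 12 genes passed an adjusted p of 0.05 in limma. At an unadjusted p under 0.05, 3 were higher, namely FGF10, SHH and EN1. Over all 13009 genes 1011 were higher and 597 lower at that threshold. FGF10, the mesenchymal signal that sustains the apical ridge, gave 8.56, 8.12 and 8.33 in PBS tissue and 8.96, 9.13 and 8.91 in FGF2 tissue. Its groups did not overlap, and the log2 fold change was 0.66 (adjusted p = 0.307). SHH gave 2.67, 2.56 and 2.94 against 3.54, 4.58 and 3.31 (adjusted p = 0.498), and only FGF2 replicate 2 stood above the background limit.

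The genes of the dorsal-ventral axis around LMX1B gave small differences. WNT7A, the dorsal ectodermal signal, gave 5.07, 5.28 and 5.32 against 5.36, 5.74 and 5.35, a log2 fold change of 0.26 (adjusted p = 0.644). EN1, the ventral ectodermal repressor of WNT7A, gave 4.88, 5.06 and 4.89 against 5.56, 5.71 and 5.08, a log2 fold change of 0.51 (adjusted p = 0.515). In both genes the lowest FGF2 value lay just above the highest PBS value. HAND2, a posterior factor upstream of SHH, gave 0.34 (adjusted p = 0.611) and PITX1 -0.51 (adjusted p = 0.644), the latter with FGF2 replicate 3 at the PBS level. TBX5 and TBX4 gave -0.16 and -0.01 (adjusted p = 0.644 and 0.722). The other bright TBX5 probe set gave -0.09. The dimmest gave 0.34 and was near background on every array except FGF2 replicate 3, at 4.44. With that probe set included, the mean of the TBX5 probe sets gave 0.03.

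**Figure D4:**
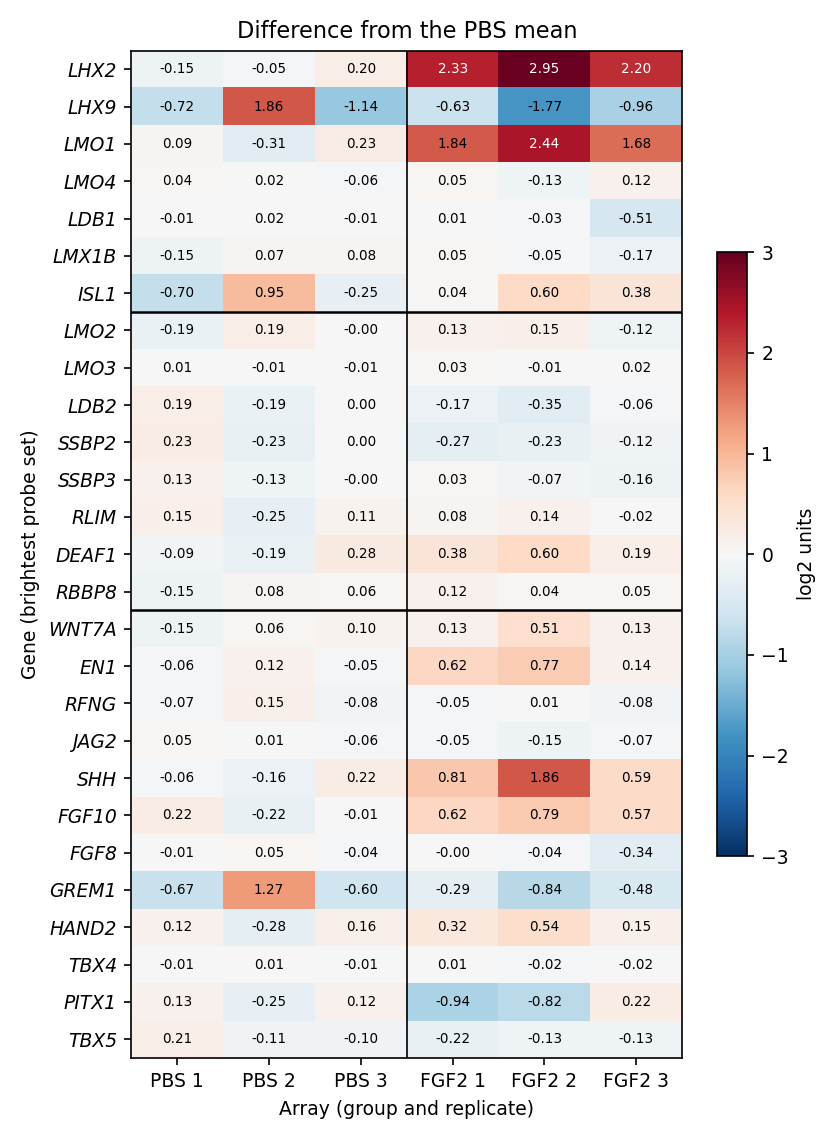
Difference of each array from the PBS mean of the gene, in log2 units, for the 7 LIM factors, 8 partners of LMO and LDB proteins and 12 limb genes (brightest probe set of each). LHX2 and LMO1 are high on all FGF2 arrays, LHX9 and GREM1 on PBS replicate 2.

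The FGF2 arrays had a common order for several of these genes, a pattern noticed after the values were seen. Replicate 2 stood above replicate 1 and replicate 1 above replicate 3 for LHX2 and LMO1, and for 6 of the 12 limb genes, WNT7A, EN1, RFNG, SHH, FGF10 and HAND2. Over all genes 17.2% had this order, and 31.6% of the 1188 genes whose FGF2 values all lay above PBS.

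Some markers of other cells were higher in the same arrays as LHX2 and LMO1. All 7 measured macrophage genes were higher in FGF2 tissue, 6 of them at an unadjusted p under 0.05, where 1011 of all 13009 genes were higher, and 0 at an adjusted p under 0.05 in limma. The log2 of their summed level was 9.37 to 9.55 in PBS arrays and 10.2 to 10.8 in FGF2 arrays. Of 8 measured neuronal genes 5 were higher and 3 lower, with a summed level of 11.6 to 11.8 against 12.2 to 12.6. STMN2, a stathmin of neurons, and DCX, a microtubule-binding protein of young neurons, were the higher genes that carried this sum, with log2 fold changes of 2.44 and 0.63 (adjusted p = 0.147 and 0.237). SYT1, a synaptic vesicle protein, gave -0.68 with all FGF2 values below PBS (adjusted p = 0.608), ELAVL4 gave -0.12 (adjusted p = 0.584) and SNAP25 lay between 2.92 and 3.04, near background. The summed level of the 6 ectoderm genes was 12.25 to 12.35 against 12.25 to 12.47. That of the 7 endothelial and blood genes was 12.88 to 13.22 against 12.98 to 13.26, and the groups overlapped in both. A sum mostly follows its brightest genes. Of the 7 endothelial and blood genes 3 were higher and 4 lower. KDR was the 1 gene among them past an unadjusted p under 0.05, with a log2 fold change of 0.55 (limma adjusted p = 0.506) and all FGF2 values above PBS. The part of these cells in the LIM factor values was not tested.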

How the data were processed

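The authors hybridized labelled RNA to Affymetrix Chicken Genome GeneChips and normalized the 6 arrays with Robust Multi-array Averaging (RMA; version not given in the sources used here), which corrects background, equalizes quantiles and summarizes probes. The deposited values are on a log2 scale, which their range of 0.128 to 15.95 points to. No source used here names the log base. Scanner files were not analysed here. Arrays were grouped by their titles.

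From 38535 probe sets 96 controls were left out. The platform annotation gave 27168 of the others 1 gene symbol, 177 several and 11094 none; a gene was represented by its brightest probe set. The contrast of FGF2 and PBS was fitted by limma (version 3.58.1, R 4.3.3; lmFit, eBayes). Its two-sided p-values were adjusted by the Benjamini-Hochberg procedure across the 38439 probe sets and called at 0.05. An exact test of 3 against 3 cannot give a p under 0.1. Array medians were 4.75 to 4.81, and the number of arrays limits precision. Over all probe sets 65.1% of differences lay below 0, with a median of -0.02.

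The members, gene lists and alternatives were chosen with earlier results of these data known. Named genes are all members, list genes that passed or else the 4 with the largest differences above the median level, fixed anatomical genes, and the 5 most like LHX2 and LHX9. Not measured were LHX4, LMX1A and SSBP4 of the LIM lists. Alternatives were quantile normalization again, median centring, brighter probe sets only, no probe sets that can match several transcripts (10468), gene means, a replicate block, each array left out, a variance trend, array weights and an unadjusted threshold. Tested on simulated arrays in which 200 of the 38439 probe sets differed, the fit called 71 of 100 set at 2-fold, and 93 of 100 set at 4-fold, with 13 false calls. Noise was drawn separately for each probe set there, and only probe sets above the median level were set to differ. Variation shared across an array was left out, so these counts do not give the recovery in the real arrays. Primers were copied from the study's primer sheet.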

Additional observations from a re-analysis of the deposited data

How the results depend on the processing

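LHX2, LHX9, LMO1 and LDB1 kept their sign under every alternative that gave a value. No member value was taken with array weights, a variance trend or the unadjusted threshold. Whether members hold their size or sign with array weights is therefore not known. Over the 6 fits that each omit an array, the LHX2 log2 fold change was 2.27 to 2.64, LMO1 1.76 to 2.14, LHX9 -1.69 to -0.19, LHX2 minus LHX9 2.66 to 4.29 and LHX2 minus the cofactor mean 1.74 to 1.98. Gene means gave -0.71 for LHX9 and 0.19 for LMO4, further from 0.01 than the spread between replicates. Signs turned for LMO4 without PBS replicate 3, FGF2 replicate 1 or FGF2 replicate 3, for LMX1B without FGF2 replicate 3 (0.00045) and for ISL1 without PBS replicate 1 (-0.01). LMO1 and the cofactor mean have no value once probe sets able to match several transcripts are dropped. DEAF1 then gave -0.02, and PITX1 gave 0.03 with array weights.

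The count of probe sets past an adjusted p of 0.05, 4 in the limma fit, was 7 after quantile normalization again, 40 among the brighter ones, 39 with a variance trend, 2256 with array weights, 3433 at an unadjusted p under 0.05, and 0 to 3 with an array left out. It was 0 without PBS replicate 1, 2 or 3 and 2 without FGF2 replicate 2 or 3. With a replicate block it was 1. Deviations of same-numbered arrays from their group means correlated at -0.246, -0.002 and -0.181, so no variation shared by same-numbered arrays was seen. These values cannot decide whether same-numbered arrays came from the same day, which the array titles do not state. Of the 26 other LIM network genes, 0 passed in the limma fit or with the block, 1 with array weights (FGF10, log2 fold change 0.52, limma adjusted p = 0.0366) and 3 at an unadjusted p under 0.05. The cause of these shifts was not tested.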

Other observations

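Lists of limb regions and tissues outside the LIM network held 0 genes past an adjusted p of 0.05 in limma. Of 8 posterior mesenchyme genes 7 were higher and 1 lower in FGF2 tissue, 3 of the former at an unadjusted p under 0.05. Over all 13009 genes 1011 were higher and 597 lower at that threshold. The median log2 fold change of the posterior genes was 0.33. Of 6 measured anterior genes, PAX9 and ASB4 were near background on every array and gave -0.03 each. The other 4 were lower. Their log2 fold changes were -0.27 for GLI3, -0.31 for ALX1, -0.35 for IRX5 and -0.76 for ALX4 (limma adjusted p = 0.171 for ALX4). ALX4 was the 1 anterior gene lower at an unadjusted p under 0.05. Of 8 skeletal muscle genes 7 were lower, 3 of them at an unadjusted p under 0.05, with a median of -0.33. Of 6 cartilage genes 5 were lower, 0 at an unadjusted p under 0.05, with a median of -0.50. Among all 13009 genes 5927 lay higher in FGF2 tissue and 7082 lower (median -0.01).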
